A study of Mus musculus with 34 samples.

Results

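The genes Zfp900 to Zfp999 of the mouse encode zinc finger proteins that received their names late, and many of them sit in large blocks of near-identical neighbours. They were chosen by symbol alone, as every protein-coding gene on chromosomes 1 to 19, X and Y of the RefSeq table (GRCm38.p6) named Zfp9 followed by 2 more digits. The rule found 62 of 21887 genes. The other 305 genes named Zfp with a number served for comparison. These too were chosen by symbol alone, and how closely they are related to the members was not computed.

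The study used ATAC-seq, an assay that tags accessible chromatin by transposase insertion, on developing and mature germ cells of male mice, and asked how Gcn5, the histone acetyltransferase encoded by Kat2a, bears on nucleosomes during spermiogenesis. The 34 libraries form 12 groups, from 4 stages and 3 backgrounds. MS is a meiotic fraction of the testis, called meiotic spermatid in the labels, RS are round spermatids, ES are elongating and condensing spermatids, and Sp is mature sperm of the cauda epididymis. SV129 mice, aged 8 to 12 weeks, gave 4 libraries per testis stage (2 biological replicates with 2 technical repeats) and 6 of sperm. For every SV129 collection the cells of 11 mice were combined. The WT group is C57BL6 GCN5+/+ and the cKO group C57BL6 GCN5-/-, in which homozygous floxed alleles meet a Cre driven by Stra8, with 2 biological replicates at each stage. The protocol in the labels describes SV129 collections, and ages and animal numbers for WT and cKO are not given in the sources used here. Testis fractions were enriched by sedimentation to a purity of at least 85%, so each is a mixture, and sperm passed through a somatic cell lysis buffer.

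Most proteins of this class carry a KRAB domain, which recruits the co-repressor Trim28 and, through it, the H3K9 methyltransferase Setdb1 and heterochromatin proteins. Their finger arrays bind chosen DNA sequences, very often those of transposable elements, which they keep silent. The genes multiply by tandem duplication, so that clusters differ between mouse strains and are hard to tell apart by short reads. Zfp932, one of the few individually studied members, binds endogenous retroviruses. Meiosis and spermiogenesis are the steps in which chromatin of the male germ line is rebuilt, first around paired chromosomes and then by the exchange of most histones for protamines.

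Each group is represented by a pair of interval lists from the authors, nucleosome calls in one and, in the other, subnucleosome peaks, which mark short accessible stretches. A gene was counted as occupied or open where an interval reached by at least 1 bp into a window of 500 bp up and down from its first or last annotated base, and the level given for a gene is the number of bases covered within these windows. With 1 list per group and class no replicate error exists, no test between groups was made, and every difference below is one between single lists of unknown depth. Lists differed greatly in length, from 473 to 56480 subnucleosome peaks and from 8628 to 591189 nucleosome calls. A missing interval cannot tell fewer cells with an open site from a library with fewer reads. The lists hold no expression values and do not check the loss of Gcn5. Stage labels were checked by marker genes. Of 10 meiotic markers (Sycp1, Spo11 and others) 8 had a subnucleosome peak in each MS list, and at RS 8 in SV129, 8 in WT and 3 in cKO. Of 10 spermatid markers (Tnp1, Prm1 and others) 10 had one at RS in SV129, 9 in WT and 1 in cKO, and at MS 6, 6 and 4. These markers therefore do not separate MS from RS in the intact backgrounds. Of 6 Sertoli markers at most 1, of 5 Leydig markers at most 1, of 6 blood markers at most 1 and of 6 epididymal and epithelial markers at most 1 had a peak in any list.

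Promoter windows of 8 members are printed first, since the results return to them. Each runs from 250 bases before to 50 after an annotated start, 5′ to 3′ on the gene's strand, from RefSeq GRCm38.p6, and 55 of the 62 members have an entry. Capitals mark the bases that a subnucleosome peak covered in every list with a peak in the window. Zfp961 (chr8:71950816-71951115, plus strand) is open in most lists, with 172 bases common to 8 lists. Zfp963 (chr8:69749913-69750212, minus strand) had a peak in 7 lists and the only member peak of cKO sperm.
Zfp961: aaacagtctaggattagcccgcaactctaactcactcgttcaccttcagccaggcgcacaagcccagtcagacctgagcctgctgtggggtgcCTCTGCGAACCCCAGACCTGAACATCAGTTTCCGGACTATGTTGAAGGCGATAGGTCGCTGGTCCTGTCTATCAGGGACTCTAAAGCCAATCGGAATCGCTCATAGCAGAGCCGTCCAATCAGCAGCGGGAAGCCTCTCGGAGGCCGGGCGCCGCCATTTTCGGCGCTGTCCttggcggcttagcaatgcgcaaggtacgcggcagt
Zfp963: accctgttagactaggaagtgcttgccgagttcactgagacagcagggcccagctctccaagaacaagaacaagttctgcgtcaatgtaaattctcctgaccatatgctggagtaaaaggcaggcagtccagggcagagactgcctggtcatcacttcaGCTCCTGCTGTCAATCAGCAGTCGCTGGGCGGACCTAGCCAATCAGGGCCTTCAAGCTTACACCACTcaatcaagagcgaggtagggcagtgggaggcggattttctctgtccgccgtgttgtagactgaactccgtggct

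Zfp972 (chr2:177925601-177925900, minus strand) and Zfp967 (chr2:176520754-176521053, plus strand) belong to the same cluster on chromosome 2. The first had peaks in 3 lists, the second in none, and the whole window of Zfp967 is repeated base for base in front of Zfp966.
Zfp972: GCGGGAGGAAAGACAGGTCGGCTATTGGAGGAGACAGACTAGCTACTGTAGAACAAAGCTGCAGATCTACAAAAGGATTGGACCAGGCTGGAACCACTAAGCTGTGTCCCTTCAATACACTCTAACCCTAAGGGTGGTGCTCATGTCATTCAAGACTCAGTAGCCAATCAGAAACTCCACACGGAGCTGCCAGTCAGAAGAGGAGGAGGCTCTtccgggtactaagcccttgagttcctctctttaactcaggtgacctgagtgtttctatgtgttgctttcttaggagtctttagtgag
Zfp967: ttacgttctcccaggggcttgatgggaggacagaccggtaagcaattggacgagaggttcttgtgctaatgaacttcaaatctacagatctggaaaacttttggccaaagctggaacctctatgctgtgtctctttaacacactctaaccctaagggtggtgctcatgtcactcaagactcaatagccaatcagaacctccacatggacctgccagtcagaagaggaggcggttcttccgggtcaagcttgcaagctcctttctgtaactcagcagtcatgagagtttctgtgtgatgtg

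Zfp947 (chr17:22165928-22166227, minus strand), Zfp994 (chr17:22225565-22225864, minus strand) and Zfp945 (chr17:22867085-22867384, minus strand) had a subnucleosome peak in SV129 sperm and in no other list. Zfp985 (chr4:147553027-147553326, plus strand) had peaks at MS and RS of SV129 only.
Zfp947: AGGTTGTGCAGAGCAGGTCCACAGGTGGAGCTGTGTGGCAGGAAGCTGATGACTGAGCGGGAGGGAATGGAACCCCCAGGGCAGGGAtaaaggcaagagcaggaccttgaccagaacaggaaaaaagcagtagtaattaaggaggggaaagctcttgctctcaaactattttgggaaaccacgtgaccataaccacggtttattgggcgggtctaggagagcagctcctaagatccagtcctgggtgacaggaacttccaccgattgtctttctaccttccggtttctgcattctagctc
Zfp994: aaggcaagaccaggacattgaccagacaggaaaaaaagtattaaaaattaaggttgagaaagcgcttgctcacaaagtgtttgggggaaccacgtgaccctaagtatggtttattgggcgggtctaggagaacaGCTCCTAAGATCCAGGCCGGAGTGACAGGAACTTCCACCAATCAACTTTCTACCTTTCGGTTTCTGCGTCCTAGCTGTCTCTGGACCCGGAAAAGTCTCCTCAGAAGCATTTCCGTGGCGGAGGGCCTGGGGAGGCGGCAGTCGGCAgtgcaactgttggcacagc
Zfp945: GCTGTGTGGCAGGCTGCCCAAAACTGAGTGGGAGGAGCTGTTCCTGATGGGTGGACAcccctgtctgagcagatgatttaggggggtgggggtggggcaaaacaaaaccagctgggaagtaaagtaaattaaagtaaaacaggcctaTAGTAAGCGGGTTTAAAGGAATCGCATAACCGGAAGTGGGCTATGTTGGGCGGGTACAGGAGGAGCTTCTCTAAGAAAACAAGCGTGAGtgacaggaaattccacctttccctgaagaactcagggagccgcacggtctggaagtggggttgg
Zfp985: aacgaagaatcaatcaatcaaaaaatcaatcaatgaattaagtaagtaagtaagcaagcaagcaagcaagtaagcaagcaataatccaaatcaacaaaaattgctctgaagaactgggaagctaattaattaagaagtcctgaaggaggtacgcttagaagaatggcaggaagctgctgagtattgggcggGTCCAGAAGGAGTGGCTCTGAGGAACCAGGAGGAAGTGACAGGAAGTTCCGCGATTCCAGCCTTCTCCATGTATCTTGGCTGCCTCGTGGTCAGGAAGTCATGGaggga

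In meiotic cells the share of members with an open end was somewhat above that of all genes, at 50% in SV129, 54.8% in WT and 43.5% in cKO. A subnucleosome peak lay at an end of 31 of 62 members in SV129 at MS, where 45% of all protein-coding genes had one, of 34 in WT (47.5%) and of 27 in cKO (33.1%). The other Zfp genes were open more often, 67.9% of 305 in SV129, 71.1% in WT and 53.1% in cKO. Round spermatids gave 19 members in SV129, below the background of 40.1%, 28 in WT (46.5%) and 4 in cKO (11.2%). No member had a peak in elongating spermatids, where the shares over all genes were 0.0868% in SV129, 0.0457% in WT and 0.0959% in cKO. Sperm returned 20 members in SV129 (21.2% of all genes), 2 in WT (8%) and 1 in cKO (3.34%). The median stretch covered at an occupied member was 241 bp in SV129 at MS, 219 bp at RS and 156 bp in sperm.

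**Figure D1:**
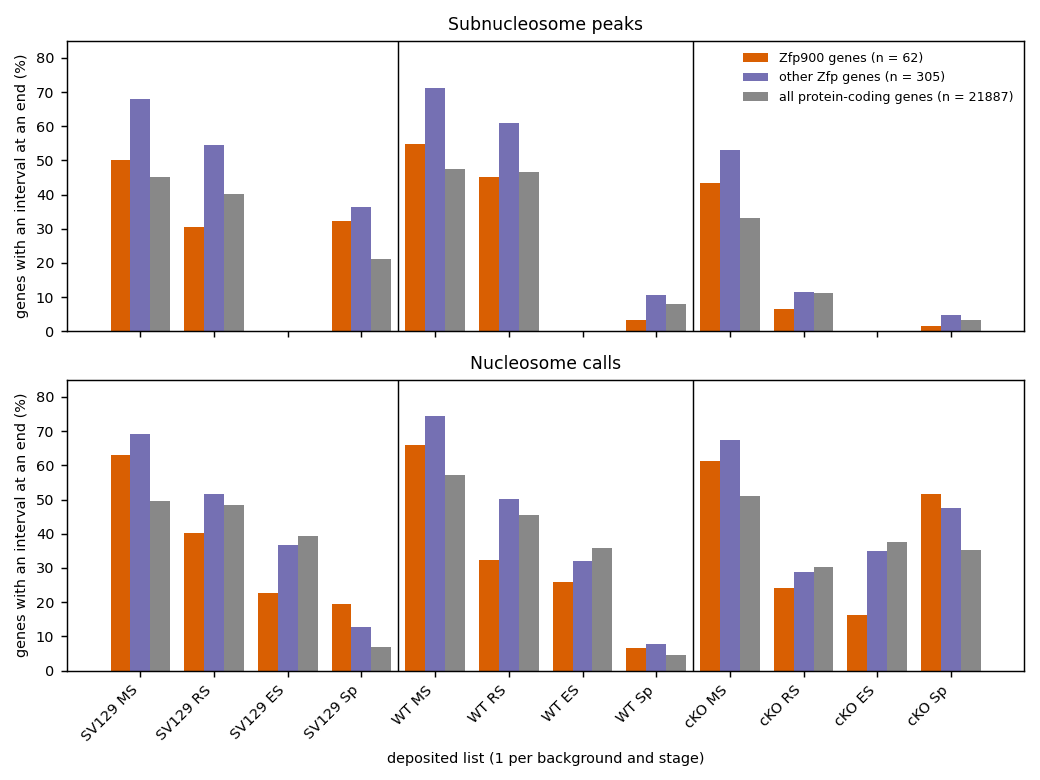
Percent of genes with an interval within 500 bp of an end (y axis) in each of the 12 subnucleosome lists (upper panel) and 12 nucleosome lists (lower panel), for the 62 Zfp900 genes, 305 other Zfp genes and all 21887 protein-coding genes; there is 1 list per group, so bars have no error. The Zfp900 genes lie below the other Zfp genes at MS and RS in both classes, and in cKO sperm 32 of 62 have a nucleosome call.

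Of the 62 members, 39 had a subnucleosome peak at an end in at least 1 list and 23 in none. Nucleosome calls reached further, with 55 members called at an end in at least 1 list. The 23 closed members were unevenly spread: 16 of them belong to the clusters of chromosomes 2 and 4, which hold 23 members. Zfp976, Zfp934, Zfp948, Zfp995, Zfp946, Zfp952 and Zfp959 are the others. Zfp976, Zfp948 and Zfp959 did have a peak at an annotated start inside the gene, which brings the open members to 42. Of the 7 members whose ends held neither class in any list, Zfp934 and Zfp959 lie outside clusters, Zfp965 on chromosome 2, and Zfp981, Zfp987, Zfp990 and Zfp993 on chromosome 4.

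**Figure D2:**
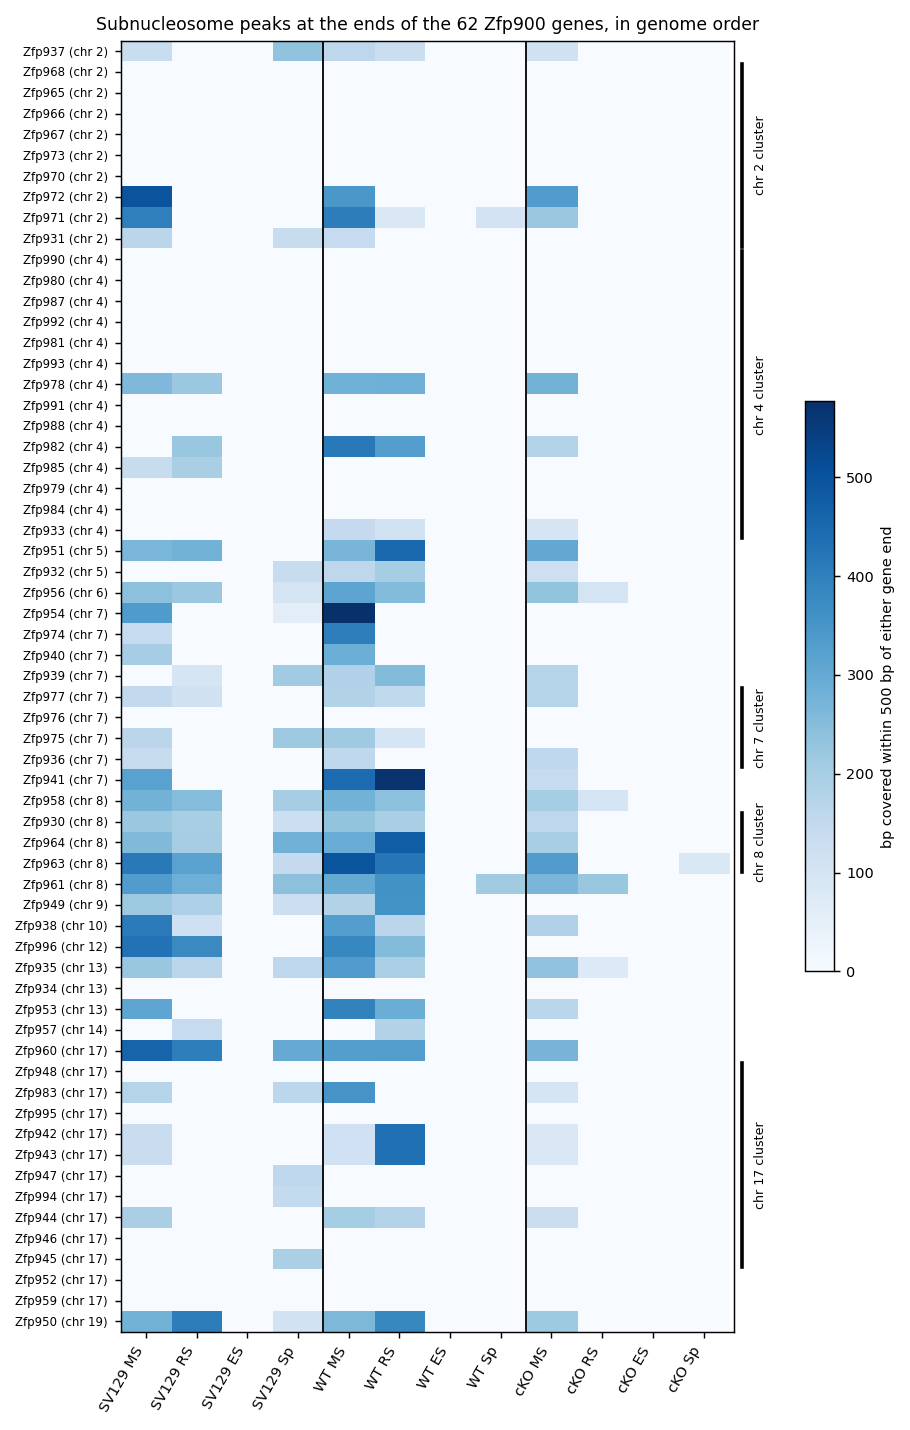
Bases covered by subnucleosome peaks within 500 bp of either gene end (colour, in bp) for each of the 62 genes (rows, in genome order) in each of the 12 lists (columns). Black bars at the right mark the 5 clusters. The ES columns are empty, and most rows of the chromosome 2 and chromosome 4 clusters hold no peak.

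At MS, 23 members were open in all 3 backgrounds. Zfp963 (chr8:69741639-69749962) was the widest, with 414, 318, 0 and 146 bp covered at MS, RS, ES and sperm of SV129, 495, 420, 0 and 0 bp in the WT lists, and 333, 0, 0 and 83 bp in cKO. It was present in 7 of 12 subnucleosome lists and, with nucleosome calls included, in 17 of all 24 lists, more than any other member. Zfp972 (chr2:177903064-177925650) was as wide at MS, at 496, 345 and 332 bp in SV129, WT and cKO, but without a peak at any later stage. Zfp971 beside it covered 400, 405 and 220 bp at MS in the same order, and then 82 bp at RS and 105 bp in sperm of WT alone.

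Zfp960 (chr17:17064103-17089631) covered 461 bp at MS, 403 at RS and 296 in sperm of SV129, 327 and 331 bp at MS and RS of WT, and 271 bp at MS of cKO. Zfp961 (chr8:71951048-71970333) was open in 8 lists, with 333, 286 and 239 bp at MS, RS and sperm of SV129, 298, 359 and 209 bp in the WT lists, and 266 and 225 bp at MS and RS of cKO. It is the only member with a peak at an end in sperm of both intact backgrounds. Those 5 members and 3 more were the widest 8 by the sum over the MS lists, the 3 being Zfp938, Zfp941 and Zfp953. Zfp938 covered 409, 329 and 184 bp at MS of SV129, WT and cKO, Zfp941 319, 444 and 143 bp, and Zfp953 309, 393 and 166 bp. In each of these 8 the cKO value was the lowest of the 3 MS values. The cKO list was also the lowest over all genes open at an end, with a median of 203 bp at MS, against 275 bp in SV129 and 350 bp in WT.

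Some members open at MS had no peak at RS in the intact backgrounds. In SV129, 15 of 31 members with an MS peak had none at RS, against 19.4% of all such genes, and in WT 7 of 34, against 12.1%. The 7 of WT were all among the 15 of SV129: Zfp972, Zfp931, Zfp954, Zfp974, Zfp940, Zfp936 and Zfp983. Zfp936 did have RS peaks at a start inside the gene. Among these Zfp954 (chr7:7114683-7121476) covered 338 bp at MS of SV129 and 577 bp at MS of WT, the widest MS value of any member. Zfp974 covered 144 and 402 bp, Zfp940 201 and 288 bp, and Zfp936 141 and 154 bp. Of the members open at RS, 3 of 19 in SV129 and 1 of 28 in WT were not open at MS, where all genes gave 841 of 8772 and 1026 of 10177. Among them was Zfp957 with 143 and 180 bp in these backgrounds at its far end.

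The 2 intact backgrounds also differed from each other. At MS, 4 of the 34 WT members lacked an end peak in SV129 (Zfp982, Zfp933, Zfp932 and Zfp939), near the 9.58% over all genes open in WT. At RS, 10 of 28 did, where the background was 15.9%. Those 10 include Zfp942, Zfp943 and Zfp944 of the chromosome 17 cluster, with 435, 435 and 177 bp in WT, and Zfp941 with 570 bp. In the other direction Zfp985 was open at MS and RS of SV129, with 137 and 196 bp, and in no subnucleosome list of C57BL6 mice. Strain, number of libraries and depth cannot be told apart in these differences.

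Sperm of SV129 had peaks at 20 members, and 15 of these were open at MS of the same background, against 4286 of 4641 among all genes. Ranked by the sum over SV129 and WT sperm, Zfp961 and Zfp960 came first. Zfp964 with 278 bp, Zfp937 with 233 bp and Zfp975 with 216 bp followed. After them came Zfp939 with 210 bp, Zfp958 with 201 bp and Zfp945 with 193 bp. Of the 6 that came after Zfp961 and Zfp960, not one had a sperm peak in WT or cKO. Zfp945, Zfp994 (147 bp) and Zfp947 (154 bp) were open in SV129 sperm alone, and all 3 lie in the chromosome 17 cluster. In the printed windows the peak covered 147 bases of Zfp994, the 87 bases farthest upstream of Zfp947, and 146 bases of Zfp945 in separate stretches. WT sperm had Zfp961 and Zfp971, and cKO sperm Zfp963. The SV129 sperm list is longer than that of WT, with 10715 against 3024 peaks, and was built from more libraries.

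Fewer members were open in cKO than in WT at MS. Of the 34 members open in WT, 7 had no peak in cKO and none was gained, against 30.8% of all genes open in WT. All 7 were open in SV129 too. Zfp996 (chr12:18387491-18406758) covered 430 bp at MS and 377 bp at RS in SV129, 385 and 254 bp in WT, and 0 bp in every cKO list. Zfp949 covered 218 and 189 bp at MS and RS of SV129 and 179 and 357 bp in WT, again with 0 bp throughout cKO. Zfp975 covered 163 bp at MS of SV129 and 213 bp in WT. The other 4, Zfp954, Zfp940, Zfp974 and Zfp931, are members whose end peaks in SV129 and WT testis lists were found at MS and at neither RS nor ES.

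The deposited score, on a scale that the authors do not state, was lower at these members than at those also open in cKO. Its median in the WT list was 27.6 at the 7 members (12.5 to 45) and 48.4 at the 27 shared ones (9.88 to 90.8), where the whole list had a median of 22.1. The cKO list is shorter, with 16087 against 35822 peaks. When the WT list was shortened to its 16087 top-scoring peaks, 26 members remained in WT beside 27 in cKO. At that length 4 members were open in WT only (Zfp974, Zfp940, Zfp975 and Zfp949) and 5 in cKO only (Zfp933, Zfp983, Zfp942, Zfp943 and Zfp944). Among all genes the shortened WT list reached 7750 and the cKO list 7242, with 1165 in WT only and 657 in cKO only.

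Round spermatids differed more. Of the 28 members open in WT, 24 had no peak in cKO, where the background was 76%, and none was gained. The 4 members left were Zfp961 with 225 bp, Zfp956 with 102 bp, Zfp958 with 96 bp and Zfp935 with 78 bp. In WT at RS the same genes covered 359, 253, 239 and 193 bp, and in SV129 286, 220, 251 and 163 bp, so that each was narrower in cKO than in either intact list. Over all genes open at an end the median at RS was likewise lowest in cKO, at 129 bp, against 238 bp in SV129 and 323 bp in WT. None of the 40 members in genomic clusters had an RS peak in cKO, and 12 had one in WT.

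Of the 24, 14 were also open in SV129. The widest by the smaller of the intact values were Zfp950 with 404 and 381 bp in SV129 and WT, Zfp960 with 403 and 331 bp, Zfp963 with 318 and 420 bp, Zfp951 with 277 and 453 bp, Zfp996 with 377 and 254 bp, and Zfp982 with 223 and 328 bp. The 4 shared members had WT scores from 43.8 to 68.1 and the 24 others from 7.3 to 68.6, with medians of 57.9 and 19.2 and a list median of 17. Among the 24, Zfp930 (68.6), Zfp950 (65.2), Zfp964 (55.7) and Zfp951 (46.3) scored as high as or higher than the lowest shared member.

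The WT list at RS is far longer, with 56480 against 4075 peaks. After shortening it to 4075 top-scoring peaks, 6 members were open in WT and 4 in cKO, 3 of them in both. WT alone then had Zfp930, Zfp964 and Zfp950, and cKO alone had Zfp958. Over all genes the shortened WT list reached 1999 genes and the cKO list 2446, with 727 in WT only and 1174 in cKO only. Cutting the list lowers the WT count by construction, so these values only show which members rank highest in each list, and the part of depth in the list lengths was not tested. At the same stage the cKO list held peaks at 3 of 10 meiotic and 1 of 10 spermatid markers, against 8 and 9 in WT.

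**Figure D3:**
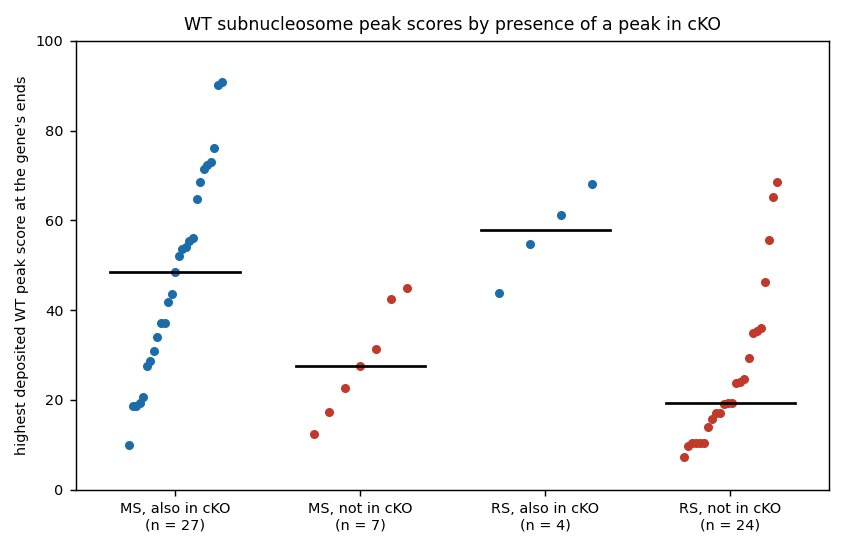
Highest deposited score of a WT subnucleosome peak at the ends of each gene open in WT (points, y axis on the authors' scale), split by whether cKO had a peak there, at MS and RS; lines are medians. Points are spread sideways by rank. At RS the 4 genes also open in cKO score 43.8 to 68.1, and 3 of the 24 others score above 50.

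Nucleosome calls gave a similar picture at MS and another one in sperm. At MS 39 members had a call at an end in SV129 (49.7% of all genes), 41 in WT (57.3%) and 38 in cKO (51.1%). At RS the numbers were 25 (48.5%), 20 (45.5%) and 15 (30.3%), and at ES 14 (39.2%), 16 (35.7%) and 10 (37.5%). In sperm 12 members had a call in SV129 (6.79%), 4 in WT (4.62%) and 32 in cKO (35.2%). Of the 41 WT members at MS, 8 had no call in cKO (20.6% over all genes) and 5 none in SV129 (17.8%). Of the 20 at RS, 8 had none in cKO (49.6%) and 2 none in SV129 (14%). At RS and ES the members thus stood below the share over all genes in all 3 backgrounds.

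In cKO sperm 29 members had a nucleosome call that WT sperm lacked, where 33.2% of all genes without a WT call had one. Of these, 19 also lacked a call in SV129 sperm. The widest were Zfp972 with 639 bp, Zfp971 with 425 bp, Zfp979 with 393 bp, Zfp970 with 360 bp, Zfp977 with 344 bp and Zfp988 with 340 bp. Zfp972 covered 388 bp at MS of cKO and nothing at RS and ES, and Zfp988 nothing at any earlier cKO stage. The cKO sperm list holds 347951 nucleosome calls against 8628 in WT and 13615 in SV129, and this length moves with the count. At earlier stages few members were called in cKO alone. At MS they were Zfp967 (170 bp), Zfp957 (150 bp) and Zfp991 (150 bp), and at RS Zfp933 (177 bp) and Zfp939 (98 bp). At ES there were 5, led by Zfp957 (210 bp), Zfp939 (180 bp), Zfp945 (177 bp) and Zfp994 (170 bp).

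Peaks at the ends of members lay almost always at the start of the gene. Among the 55 members with a known strand, the annotated start held the peak in 28 of 28 cases at MS of SV129, 31 of 31 in WT and 24 of 24 in cKO, and over all genes open at an end the start was included in 97.3%, 97.4% and 97.8%. Zfp957 was the exception at RS. With gene bodies included, 262 peaks of all lists lay in or at members with an entry, where a peak shared between members is counted for each. Of these, 186 had their centre within 500 bp of a start site, with 19 of 36 at RS of SV129 and 34 of 57 at RS of WT. In the body of Zfp993 alone lay 13 peaks at RS of SV129 and 12 at RS of WT. Within the limit of 500 bp the centre lay at a median of 38 bp upstream, written as -38, with extremes of -313 and 486. Counted in promoter windows in place of gene ends, 32 of 55 members had a peak at MS of SV129 (45.2% of 17492 genes with an entry), 34 in WT (48.6%) and 23 in cKO (33.7%). Some annotated starts lie inside the gene span, and the windows there add peaks that the ends miss. Zfp959 had a peak in 8 lists at a start 1009 bp inside, among them RS of cKO and sperm of SV129 and WT. Zfp976 had one in 4 lists at a start 1663 bp inside and Zfp948 in 2 lists (1162 bp). The annotated start of Zfp936 lies 14519 bp before the far end of the gene and had a peak in 5 lists, RS of SV129 and WT among them.

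Zfp942 and Zfp943 share their opening. They lie head to head on opposite strands, and 1 peak of 132 bp in SV129 (chr17:21962486-21962617) and 1 of 116 bp in WT (chr17:21962458-21962573) at MS spans the gap. In WT at RS 3 peaks lay in and around it, with 435 bp in all. At MS of cKO the only peak, of 82 bp (chr17:21962244-21962325), lay inside Zfp942 and did not reach the gap. These values are counted for both genes.

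Members in clusters were open less often than those outside. Joined where the gap between neighbours was at most 1 Mb, with 3 or more members, 40 genes form 5 clusters, on chromosomes 2, 4, 7, 8 and 17, and 22 lie elsewhere. In WT at MS 16 of 40 clustered members had a subnucleosome peak and 18 of 22 others, and in SV129 the numbers were 15 and 16. At RS they were 12 and 16 in WT, 7 and 12 in SV129, and 0 and 4 in cKO. The median covered stretch at MS of WT was 222 bp in clusters and 306 bp outside. Members with intervals of either class in the most lists came from both kinds of place. Zfp963 (17 of 24 lists) and Zfp978 (16) lie in clusters, and Zfp961 (16), Zfp935 (15) and Zfp956, Zfp958 and Zfp960 (14 each) outside.

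The chromosome 2 cluster (chr2:175372034-178078425, 2.71 Mb) runs from Zfp968 to Zfp931 with 9 members. It held few intervals at RS of the intact backgrounds. Over the whole span there were 22 subnucleosome peaks at MS in SV129 and 22 in WT, then 1 and 4 at RS, and 221 and 210 nucleosome calls at MS, then 14 and 3 at RS. At RS of WT that is 1.11 calls per Mb against 93.1 over all chromosomes. At MS of cKO there were 191 nucleosome calls and at RS 52. At ES calls numbered 183 in WT, 96 in cKO and 87 in SV129. The sperm lists had 142 in cKO, 2 in SV129 and 3 in WT. The longest stretch without an interval of any of the 24 lists measured 234 kb, and 57.9% of its 10 kb bins were empty, against 10.8% over all chromosomes. Zfp972, Zfp971 and Zfp931, the last 3 members of the array, were open, and Zfp968, Zfp965, Zfp966, Zfp967, Zfp973 and Zfp970 were not in any list. Zfp931, at the upper edge, covered 163 bp at MS and 138 bp in sperm of SV129 and 142 bp at MS of WT.

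Most promoter windows of these 9 genes are close copies of another one. Those of Zfp966 and Zfp967 are identical over 300 bases, Zfp968 and Zfp973 differ at 1 aligned base of 300, and Zfp965 and Zfp971 share 97% of aligned bases. By contrast the windows of Zfp972 and Zfp931 match their nearest relative in the cluster, Zfp971, over 74.2% and 79.4%. Each of the 6 closed genes had 95.2% or more of the 50-base stretches of its window repeated in front of another gene. Zfp972 had 0%, Zfp971 48.6% and Zfp931 100%, where the other gene need not be a member. The sources used here do not say whether reads from repeated stretches were kept, so a closed promoter and one that short reads could not place cannot be told apart for the 6.

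The same comparison was made for all members. Of 7 members with at least 90% of the window repeated, 1 had a subnucleosome peak in any list, of 22 with less 16, and of 26 with no repeated stretch 21. Over all protein-coding genes with an entry the shares were 41.3%, 63.7% and 54.1%. Among other Zfp genes 5 of 6 windows with at least 90% repeated sequence had a peak. The 7 members were not free of intervals: 6 had a nucleosome call in the window in at least 1 MS list. The limit of 90% was set after the values were seen, and all 7 genes belong to the chromosome 2 cluster.

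**Figure D4:**
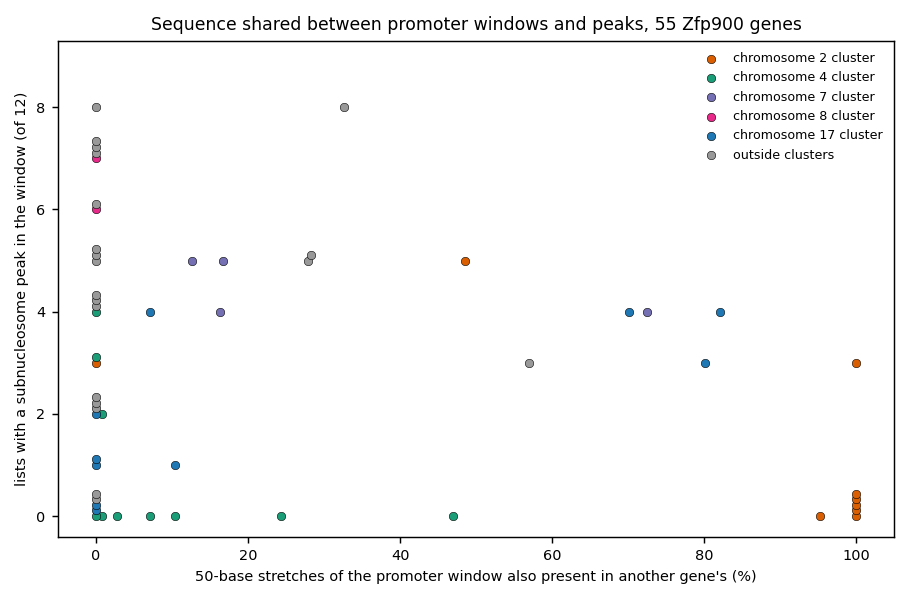
Percent of 50-base stretches of a promoter window that also occur in another gene's window (x axis) against the number of the 12 subnucleosome lists with a peak in the window (y axis) for 55 Zfp900 genes, coloured by cluster; overlapping points are shifted upward slightly. The 6 chromosome 2 genes at 95.2% or more without a peak sit in the lower right corner, and Zfp931 at 100% has 3 lists.

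The chromosome 4 cluster (chr4:145510759-147849126, 2.34 Mb, Zfp990 to Zfp933) has the most members, 14. Only Zfp978, Zfp982, Zfp985 and Zfp933 had a subnucleosome peak at an end in any list. Zfp978 (chr4:147124882-147392027) covered 260 and 219 bp at MS and RS of SV129, 280 and 284 bp in WT and 276 bp at MS of cKO. Zfp982 covered 223 bp at RS of SV129, 413 and 328 bp at MS and RS of WT and 178 bp at MS of cKO. Zfp933 covered 145 and 111 bp at MS and RS of WT and 98 bp at MS of cKO at its ends, and its promoter window, 708 bp inside, had a peak at MS of SV129 as well. The 10 members without a peak do not share the near-complete repetition of chromosome 2: where an entry exists, between 0% and 47% of their window was repeated. The share of G and C in these windows ran from 38% at Zfp993 to 44.7% at Zfp984. Of the open members, Zfp933 (41.7%) and Zfp985 (44%) lay in the same range, and the window of Zfp982 with peaks lay above it, at 56%. The median was 43% over all 10 cluster members with an entry, open ones included, against 49.3% over all 55 members and 57.3% over all genes.

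In sperm the span of this cluster carried far more nucleosome calls than its length would give. It held 790 of the 12102 calls of SV129 sperm on the chromosomes used, 6.53% (Wilson 95% interval 6.1% to 6.98%), and 234 of 7118 in WT, 3.29% (2.9% to 3.73%). Those intervals cover counting error only, and calls overlap each other. How reads with several matches were treated is not given, and repeated sequence was measured in promoter windows only, not over the span. Whether the placing of such reads bears on these counts was not tested. Per Mb this is 338 calls against 4.45 over all chromosomes in SV129, 76 times as many, and 100 against 2.61 in WT, 38.3 times. In cKO sperm 1438 of 345813 calls lay there, 4.84 times the density of all chromosomes. At MS the same span had 634, 490 and 502 calls in SV129, WT and cKO, 3.73, 1.74 and 1.85 times the overall density. The number of calls was thus higher in sperm than at MS in SV129 and cKO, and lower in WT, while the whole lists were shorter in sperm of SV129 and WT and longer in sperm of cKO.

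The calls were concentrated in a few places. In 50 kb bins from the lower end of the cluster, the fullest bin of the sperm lists began at 1900 kb in all 3 backgrounds, with 132 calls in SV129, 57 in WT and 123 in cKO, in the gap after Zfp978 and the first part of Zfp982. The same bin was the fullest at MS of SV129 and cKO, at RS of SV129 and at ES of all 3 backgrounds. The 5 fullest of 47 bins held 46.6%, 62.4% and 34.8% of the sperm calls, and 41.8%, 40.4% and 38.2% of the MS calls, in SV129, WT and cKO. The gene body of Zfp978 outside its ends contained 81 calls in SV129 sperm, 53 in WT and 324 in cKO, and that of Zfp993, which spans 478623 bp and overlaps Zfp981, 42, 1 and 119. Zfp980 had 26, 11 and 43. Of the 234 WT calls 139 overlapped an SV129 sperm call, 59.4% (53% to 65.5%), against 39.8% of WT sperm calls on all chromosomes, while 190 of the 790 SV129 calls overlapped a WT sperm call, 24.1% against 26.1% over all chromosomes. With a WT call at MS 75 of the 234 overlapped, 32.1% against 50.4%. Among 2732 windows of 1 Mb, the one from 147000001 to 148000000 ranked 2 by calls in SV129 sperm with 445, 4 in WT with 168 and 2 in cKO with 877. The medians over windows were 1, 1 and 129. Windows on chromosomes 1, 5, 8, 9, 11 and 12 that hold no cluster of these genes were among the first 4 as well.

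**Figure D5:**
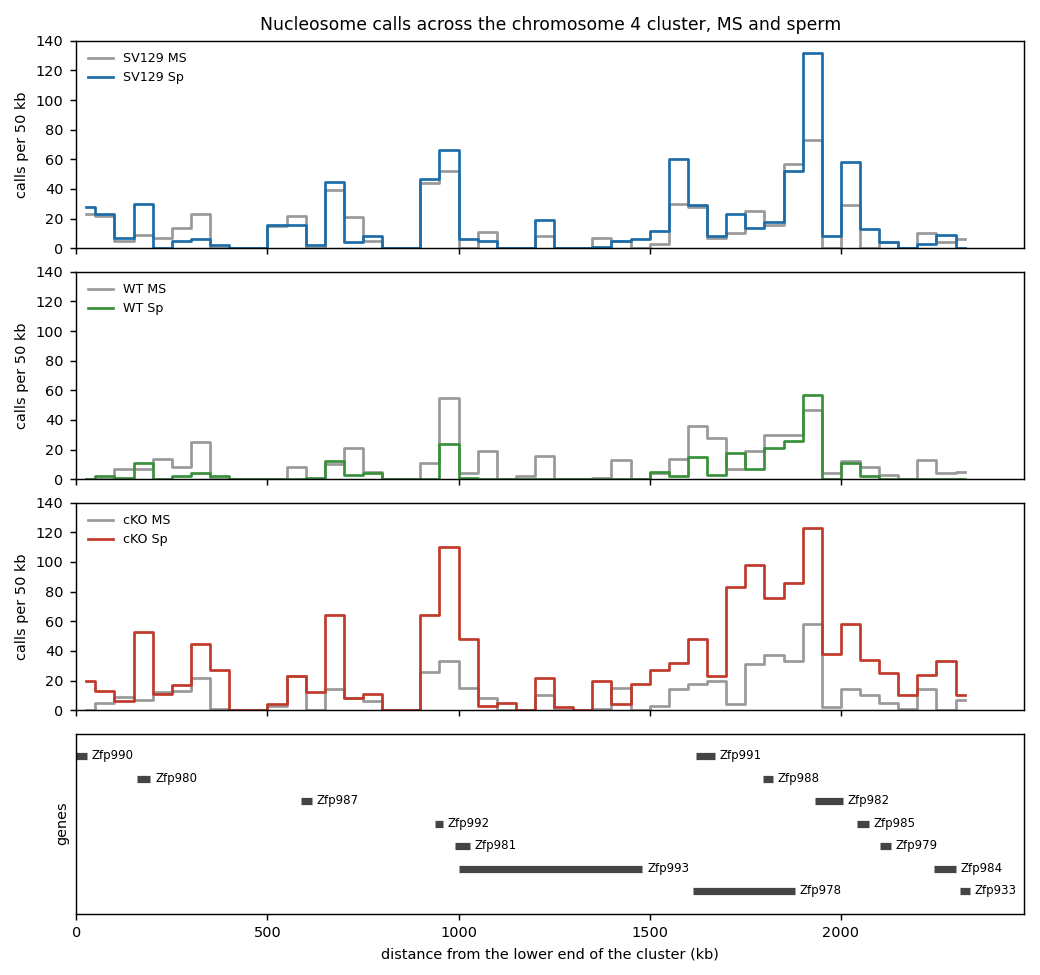
Nucleosome calls per 50 kb (y axis) along the chromosome 4 cluster as distance from its lower end in kb (x axis), for MS (grey) and sperm (colour) of SV129, WT and cKO, with the 14 genes below. The fullest sperm bin begins at 1900 kb in each background, with 132, 57 and 123 calls.

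Few of these calls lay at gene ends in the intact backgrounds. In SV129 sperm 3 of the 14 members had a nucleosome call at an end (Zfp978 with 360 bp, Zfp982 with 190 bp and Zfp991 with 74 bp), and in WT sperm 2, Zfp978 with 170 bp and Zfp991 with 69 bp. In cKO sperm 9 did. Subnucleosome peaks in the span numbered 17 in SV129 sperm and 0 in WT and cKO. At ES the span held 15 of the few SV129 peaks, 2.07% of the list (1.26% to 3.39%), 5 of WT, 1.01% (0.431% to 2.34%), and 1 of cKO, 0.236% (0.0417% to 1.33%), none of them at the end of a member.

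The chromosome 17 cluster (chr17:21565816-22867309, 1.3 Mb) runs from Zfp948 to Zfp945 with 10 members. At MS 4 members were open in each background, Zfp983, Zfp942, Zfp943 and Zfp944. In cKO, Zfp942 and Zfp943 were counted by the same 82 bp peak inside Zfp942, away from the SV129 and WT peaks between them. At RS SV129 had 0 and WT 3, and in sperm SV129 had 4, Zfp983 with 162 bp and the 3 genes open there alone. Nucleosome calls at ends were found at 7, 5 and 6 members at MS of SV129, WT and cKO, and at 3, 1 and 8 in sperm. The windows of Zfp942 and Zfp944 share 84.3% of aligned bases.

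On chromosome 7 (chr7:42579397-43192109, 0.613 Mb, Zfp977 to Zfp936) 3 of 4 members were open at MS in SV129 and WT and 2 in cKO. Zfp977 covered 151 and 113 bp at MS and RS of SV129, 179 and 152 bp in WT and 175 bp at MS of cKO. Zfp975 is the member of this group without a cKO peak. The chromosome 8 cluster (chr8:69209018-69749962, 0.541 Mb) was the most open: Zfp930, Zfp964 and Zfp963 had a peak at MS in all 3 backgrounds, at RS in SV129 and WT, and in SV129 sperm. Zfp964 covered 257, 202 and 278 bp at MS, RS and sperm of SV129, 293 and 475 bp at MS and RS of WT and 198 bp at MS of cKO. Zfp930 covered 219, 198 and 125 bp, then 232 and 196 bp, then 159 bp. At RS of cKO none of the 3 had one.

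Base composition of the windows differed between members with and without a peak in the window at MS. The median share of G and C was 54% at the 35 members with a peak in the window in at least 1 MS list and 47.7% at the other 20, and the CpG observed to expected ratio 0.45 and 0.29. Most of the 20 belong to the clusters of chromosomes 2 and 4, among them the 6 chromosome 2 genes with repeated windows. Zfp945, Zfp947 and Zfp994, open in SV129 sperm, are also among the 20. Medians over the cluster members with an entry were 48.3% and 0.28 on chromosome 2, and 43% and 0.38 on chromosome 4. All genes gave 62.7% and 50% with ratios of 0.82 and 0.26. Members as a whole had a ratio of 0.42, other Zfp genes 0.69 and all genes 0.61.

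Of 8 short motifs searched on both strands, CCAAT, the site of the factor NF-Y, stood out by its share. It occurred in the window of 42 of 55 members (76.4%), 48% of other Zfp genes and 42.3% of all 17492 genes. In the printed windows it occurs 2 times in Zfp961, 3 times in Zfp972 and 1 time in Zfp963, all within the capitals. Of 2 in Zfp994, 1 lies in the capitals, and the 1 in Zfp947 and the 1 in Zfp985 lie outside them. Zfp945 has 0, and Zfp967, which has no peak, has 2. A peak at MS was found at 27 of the 42 members with the motif and 8 of the 13 without. CCGGAAG, the core of ETS factor sites, was in 25.5% of members, 23.2% of other Zfp genes and 12.9% of all genes. In the same order GGGCGG, the GC box, was in 36.4%, 49.2% and 49.2%, CAACTG in 10.9%, 13.2% and 14.2%, and TGACGTCA in 1.82%, 4% and 2.54%. AAGATGGC was in 1.82%, 6.8% and 3.57%, TATAAA in 0%, 10% and 14.8%, and GTTGCCAT in 0%, 0.4% and 1.34%. Members that are copies of each other are counted separately, and a match of letters is not a bound site.

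A list of 28 genes of KRAB silencing holds partner proteins and also the zinc finger genes Zfp445, Zfp568, Zfp57, Zfp809 and Zfp819. Of the 28, 24 had a subnucleosome peak at MS of SV129 (45% of all genes), 23 of WT (47.5%) and 18 of cKO (33.1%). At RS 21 (40.1%), 23 (46.5%) and 7 (11.2%) did, at ES 0 in each, and in sperm 12 (21.2%), 7 (8%) and 2 (3.34%). Trim28, the co-repressor bound by the KRAB domain, covered 383 and 378 bp at MS and RS of SV129, 369 and 388 bp at these stages of WT, and 293 and 98 bp in cKO. Setdb1, the methyltransferase it recruits, covered 145 and 155 bp, then 204 and 223 bp, then 83 bp at MS of cKO and 0 at RS. Mphosph8 of the HUSH complex covered 445, 426 and 299 bp at MS, RS and sperm of SV129, 433, 441 and 193 bp at the same stages of WT, and 365 and 277 bp at MS and RS of cKO. Chd3, Dnmt1, Tasor and Zfp57 had no peak at an end in any list. This list was written with earlier results of these data known.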

How the data were processed

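ATAC-seq of mouse germ cells was taken from 24 deposited interval lists. The values are a score per interval, which the authors deposited on a scale that the lists do not state, and SV129 subnucleosome peaks carry a score of 0 throughout. Per the submitters' processing notes the tools include STAR 2.5.2a and MACS2 2.1.0.20140616 and the build is GRCm38 (mm10). How nucleosomes and peaks were called, how replicates were combined, how reads with several matches were treated and the depth are not given in the sources used here. Overlaps, covered bases, clusters and promoter sequence were computed with Python 3.11.15, pandas 2.3.3, numpy 2.4.6, scipy 1.17.1 and Biopython 1.88, and plots with matplotlib 3.10.9. Overlap functions were checked on simulated data. Coordinates were not converted between builds, and genes came from RefSeq GRCm38.p6.

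The members and gene lists were chosen with earlier results of these data known. Named genes are the widest at MS in all 3 backgrounds (up to 8), in intact sperm (up to 8), those lacking in cKO (up to 6 per stage) or called in cKO alone (up to 4 per stage, 6 in sperm), those in the most lists (up to 5), those in none, and the ends of clusters. Others were named after their values were seen. Of 5 spermatogonial markers at most 1 had a peak in a list. Promoter entries were missing for Zfp990, Zfp992, Zfp978, Zfp991, Zfp930, Zfp934 and Zfp960. Alternatives were windows of 250 and 1000 bp, the annotated start alone, interval centres inside the window, intervals shared between genes left out, stricter scores (the upper 50% of WT and cKO peaks, nucleosome calls without the most common score), other cluster gaps and shortened WT lists.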

Additional observations from a re-analysis of the deposited data

Results flagged for a closer look

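The number of members with a nucleosome call at an end differed between cKO and WT in opposite directions at different stages. The difference, cKO minus WT, was -5 at RS, from 15 against 20 members, and 28 in sperm, from 32 against 4. The number with a subnucleosome peak also differed in opposite directions between the intact backgrounds. SV129 minus WT was -9 at RS, from 19 against 28 members, and 18 in sperm, from 20 against 2. These differences were not tested, since each group has 1 list. In each of the 4 cases the longer list held the larger number of members.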

How the results depend on the processing

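Of 194 counts under alternative settings, 179 stayed within 1.5 times the reported count and 15 did not. The 179 include the subnucleosome counts at ES, which were 0 under every setting and say nothing about stability. With stricter scores (the upper 50% of peaks, or nucleosome calls without those at the most common score), subnucleosome members numbered 0 in WT sperm in place of 2, 17 at MS of cKO in place of 27, and 1 at RS of cKO in place of 4, and nucleosome members at ES of cKO 5 in place of 10. Members open in WT and not in cKO then numbered 11 at MS in place of 7 and 0 in sperm in place of 2, and for nucleosome calls in sperm 2 in place of 1. With the annotated start alone, nucleosome members numbered 9 at ES of WT in place of 16 and 2 in WT sperm in place of 4, and members called in WT and not in cKO at ES 8 in place of 13. That setting also drops the 7 members without a known strand, wherever their calls lie. The 2 lost in WT sperm, Zfp978 and Zfp991, are of this kind, and both were lost with Zfp992 at ES of WT. A window of 250 bp gave 2 members in WT sperm, and one of 1000 bp gave 21 at ES of cKO. With the WT list cut to as many peaks as cKO had, WT at RS had 6 in place of 28. Members open in WT only, counted under this setting after seeing the data, numbered 4 at MS in place of 7 and 3 at RS in place of 24. The cause was not tested. SV129 subnucleosome peaks have no scores to rank, so no stricter count exists there. Clusters joined at 0.5 Mb held 38 members in 6 clusters, and at 2 Mb 40 in 5. No paired analysis was possible because each group has 1 list that carries no replicate number. Depth is unknown, so a missing interval sets no upper limit on openness, and leaving out a replicate could not be done.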

Other observations

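The 41 other protein-coding genes within the spans of the 5 clusters had subnucleosome peaks at ends about as seldom as the clustered members. At MS 13 had one in SV129, 15 in WT and 12 in cKO, beside 15, 16 and 14 of the 40 members. These are 31.7%, 36.6% and 29.3% of neighbours and 37.5%, 40% and 35% of members. All genes gave 45%, 47.5% and 33.1%. At RS the neighbours numbered 5, 11 and 3, where all genes gave 40.1%, 46.5% and 11.2%. In sperm they numbered 7, 3 and 1, where all genes gave 21.2%, 8% and 3.34%. Nucleosome calls in cKO sperm lay at ends of 14 of the 41 neighbours (34.1%) and of 24 of the 40 members (60%). The share over all genes was 35.2%. SV129 sperm had 3 and 8 (6.79% of all genes) and WT sperm 0 and 3 (4.62%).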
